A study of Caenorhabditis elegans with 24 samples.

Results

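The effect of the FOXO transcription factor DAF-16 on the transcriptome of *C. elegans* body wall muscle was examined at low insulin/IGF-1 signaling (IIS). *daf-2(lf)* muscle cells (3 libraries) were set against muscle cells of animals with a further loss-of-function allele of *daf-16*, *daf-16(lf); daf-2(lf)*, here called the double mutant (3 libraries). These are 6 of the 24 mRNA-seq libraries of the study, chosen by genotype and cell type as labelled. Both strains carried a GFP transgene in body wall muscle, whose promoter is not given in the sources used here, and a temperature-sensitive *daf-2* loss-of-function allele, e1370. Both were raised at the permissive temperature to the last larval stage and then shifted for several hours to the temperature that inactivates the receptor, so that genotype at *daf-16* was the only labelled difference. Cells of young adults were dissociated, and living GFP-positive cells were sorted as muscle cells. The remaining libraries, muscle cells of wild-type and *daf-16(lf)* animals and ungated living cells ("all cells") of all 4 genotypes, entered the same model and its estimate of the spread. The methods call the 3 replicates of a genotype independent without naming the step at which they were separated. The p-values therefore measure the spread between libraries of a group, pooled over the 8 groups of all 24 libraries.

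In *C. elegans* the insulin receptor DAF-2 acts through a PI3 kinase, PDK-1 and AKT kinases that phosphorylate DAF-16 and hold it in the cytosol. When the receptor is impaired, DAF-16 enters the nucleus and changes the transcription of genes for stress defence, metabolism and longevity, including the superoxide dismutase gene *sod-3*. Body wall muscle is the largest muscle tissue of the worm, attached to the cuticle through the hypodermis and built of obliquely striated sarcomeres.

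The targeted gene was examined by transcript. The 6 *daf-16* transcripts (gene R13H8.1, chromosome I of WBcel235, 10750498 to 10776703) that were above 0 in *daf-2(lf)* muscle cells and not in the double mutant summed to 38.05, 25.3 and 23.4 TPM in *daf-2(lf)* libraries, and were listed at 0 in all 3 double mutant libraries. They were picked for that pattern in muscle cells, so the check rests on the all cells libraries, where they summed to 32.3, 25.02 and 18.1 TPM in *daf-2(lf)* and were listed at 0 in all 3 double mutant libraries. TPM, or transcripts scaled to a common total, is the share of a transcript in its library after division by its length. A further 5 transcripts of the gene were above 0 in the double mutant and summed to 12.5, 3.27 and 11.4 TPM in *daf-2(lf)* muscle cells, against 11.8, 19 and 28.7 TPM in double mutant muscle cells, so that the summed level of the gene does not check the labels. The 13 markers of body wall muscle summed to between 57891 and 68114.5 TPM in *daf-2(lf)* muscle cells and between 45744 and 56828 TPM in double mutant muscle cells, against at most 8024.5 TPM in the all cells libraries of either genotype. The marker sum was thus far above the all cells level in each of the 6 libraries, and was higher in *daf-2(lf)* without overlap. The spacing of low TPM values gave estimated depths of 31300000 to 38700000 fragments, and of 22200000 to 52500000 over all 24. *daf-2(lf)* replicate 1 had 12462 genes above 0, against 15323 to 17272 in the other 5 libraries. Wild-type all cells replicate 1, which entered the same estimate of the spread, had 9198.

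About as many genes were raised as lowered in *daf-2(lf)* muscle cells, but the raised genes were the more abundant by their medians. Of 14714 genes tested, 46 were higher (0.313%) and 44 were lower (0.299%) in *daf-2(lf)* than in double mutant muscle cells (limma on log2(TPM + 1), Benjamini-Hochberg adjusted p under 0.05), so that 90 genes or 0.612% passed, with 1190 (8.09%) at an unadjusted p under 0.05. The raised genes had a median of 28.3 TPM in *daf-2(lf)* and 1.75 TPM in the double mutant, and 15 of them were above 100 TPM in *daf-2(lf)*. The lowered genes had a median of 0.675 TPM in *daf-2(lf)* and 7.19 TPM in the double mutant, and 3 of them were above 100 TPM in the double mutant. All 46 raised genes and 43 of the 44 lowered genes had values without overlap between genotypes. Over all genes tested, the libraries did not overlap in 12.4%, with all 3 *daf-2(lf)* libraries higher in 2.64% and lower in 9.79%. In bulk samples, fewer cells of a type and less RNA per cell cannot be told apart.

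The whole table leaned to lower values in *daf-2(lf)*, with a median log2 difference of -0.19 over all genes tested. Quantile normalization moved this median to 0.01 and median-of-ratios scaling moved it to -0.05, and the calls then split into 67 higher and 25 lower, or 63 higher and 34 lower. The medians of gene lists are therefore read against the median of all genes, while the calls themselves made no allowance for this shift. The counts also hung on single libraries. The lowered genes numbered 626 without double mutant replicate 1, 13 without double mutant replicate 3, 23 without *daf-2(lf)* replicate 1 and 29 without *daf-2(lf)* replicate 3. The raised genes numbered 59, 30, 29 and 32 in the same fits, and 25 of the 46 raised genes and 9 of the 44 lowered genes passed in every fit that left out 1 of the 6 libraries.

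**Figure D1:**
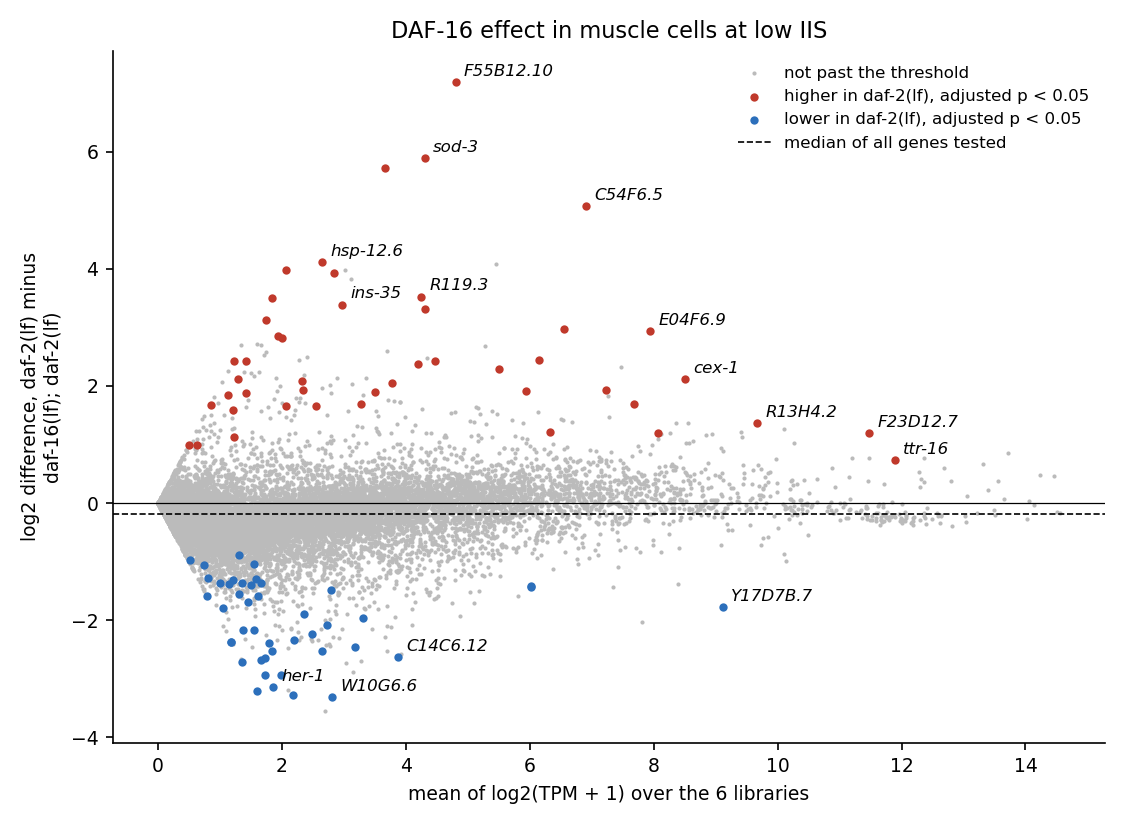
Log2 difference of each gene (*daf-2(lf)* minus double mutant muscle cells, y axis) against its mean log2(TPM + 1) over the 6 libraries (x axis), for the 14714 genes tested. Red points are the 46 raised genes, which reach a difference of 7.19 and extend to abundant transcripts such as *ttr-16*, and blue points are the 44 lowered genes, most of which lie at low abundance; the dashed line is the median of all genes, -0.19.

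Among the raised genes, the largest difference was that of F55B12.10, a protein-coding gene without an assigned name (WBGene00077439, chromosome V, 13839733 to 13840491). Its level was 488, 126 and 619 TPM in *daf-2(lf)* muscle cells and was listed at 0, 1.53 and 3.90 TPM in double mutant muscle cells. Every *daf-2(lf)* library lay far above every double mutant library, and replicate 2 was the lowest of the 3. The log2 difference was 7.19 ± 0.62 (SE, limma adjusted p = 8.34e-07). Its transcript has 252 bases. The TPM values imply that the length correction takes off 236 to 258 bases in these libraries, so its level rests heavily on that correction. The next largest was *sod-3* (C08A9.1, WBGene00004932, chromosome X, 17092753 to 17094306), the mitochondrial manganese superoxide dismutase long used as a readout of DAF-16. It was at 221, 75.7 and 207 TPM in *daf-2(lf)* and at 1.05, 1.72 and 2.04 TPM in the double mutant. The groups stood apart in all libraries, by 105-fold in the means and by 5.89 ± 0.68 on the log2 scale (SE, limma adjusted p = 3.82e-05). *sod-3* overlaps 2 other annotated genes, C08A9.3 and *lido-1*, and because the strand setting of the counting is not given in the sources used here, reads of overlapping genes may not be told apart.

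R119.3 varied little within each genotype. It held 59.3, 61.3 and 69.4 TPM in *daf-2(lf)* muscle cells and 4.66, 4.69 and 4.36 TPM in double mutant muscle cells. The libraries of a genotype differed little, and the means differed by 13.9-fold (log2 difference 3.53 ± 0.26 SE, limma adjusted p = 7.7e-08). R119.3, *sod-3* and C54F6.15 were also the 3 genes that passed when the 6 libraries were fitted alone.

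Several of the raised genes lie close together on chromosome V. In order along the chromosome they are C54F6.15 (7521900 to 7522379), C54F6.6 (7523692 to 7524164), C54F6.5 (7529116 to 7529450) and *ftn-1* (7546468 to 7547579), separated by 1313, 4952 and 17018 bases. C54F6.5 had the highest TPM of them, at 1258, 301 and 897 TPM in *daf-2(lf)* muscle cells and 11.9, 15.3 and 41.6 TPM in double mutant muscle cells. Its transcript of 257 bases is also close to the length that the correction takes off, so its level rests heavily on that correction. The groups did not overlap, and the means differed by 35.7-fold (log2 difference 5.07 ± 0.63 SE, limma adjusted p = 0.000104). C54F6.15 was at 114, 73.1 and 90.1 TPM in *daf-2(lf)*, against 1.62, 0 and 1.02 TPM in the double mutant (log2 difference 5.72 ± 0.40 SE, limma adjusted p = 6.41e-08). C54F6.6 was at 21.2, 7.17 and 23.97 TPM in *daf-2(lf)*, against 0, 0.155 and 0 TPM in the double mutant (3.98 ± 0.39 SE, limma adjusted p = 4.06e-06). *ftn-1*, which encodes a ferritin that stores iron, was low in muscle, at 9.14, 1.01 and 2.52 TPM in *daf-2(lf)* and 0.158, 0.191 and 0.0993 TPM in the double mutant. Its *daf-2(lf)* libraries were uneven, and its call (log2 difference 1.85 ± 0.41 SE, limma adjusted p = 0.04) held in 2 of the 6 fits that left out a library. In all cells *ftn-1* was more abundant, with a mean of 63.6 TPM in *daf-2(lf)* and 3.915 TPM in the double mutant. Only called genes were placed in order, so genes between them were not examined. The called genes C14C6.12 and K06H6.2, 14567 bases apart on the same chromosome, moved in opposite directions (log2 differences -2.63 and 1.67). Of the raised genes, 20 of 46 lie on chromosome V (43.5%), which holds 20.4% of the genes tested.

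The other raised genes at the top of the range included R04B5.6, at 17.2, 23.5 and 47.4 TPM in *daf-2(lf)* and 0.354, 2.44 and 0.334 TPM in the double mutant (log2 difference 3.92). F47B8.2 was at 119.6, 26.6 and 71.3 TPM in *daf-2(lf)* and 4.25, 4.13 and 8.17 TPM in the double mutant (3.31). *skr-21*, which encodes a Skp1-related component of SCF ubiquitin ligases, was at 12.68, 4.53 and 13.3 TPM in *daf-2(lf)* and 0.387, 0.358 and 0.553 TPM in the double mutant (2.84). In each of these genes all *daf-2(lf)* libraries exceeded all double mutant libraries. In 39 of the 46 raised genes, *daf-2(lf)* replicate 2 was the lowest of the 3, and without it 40 of the 46 still passed.

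**Figure D2:**
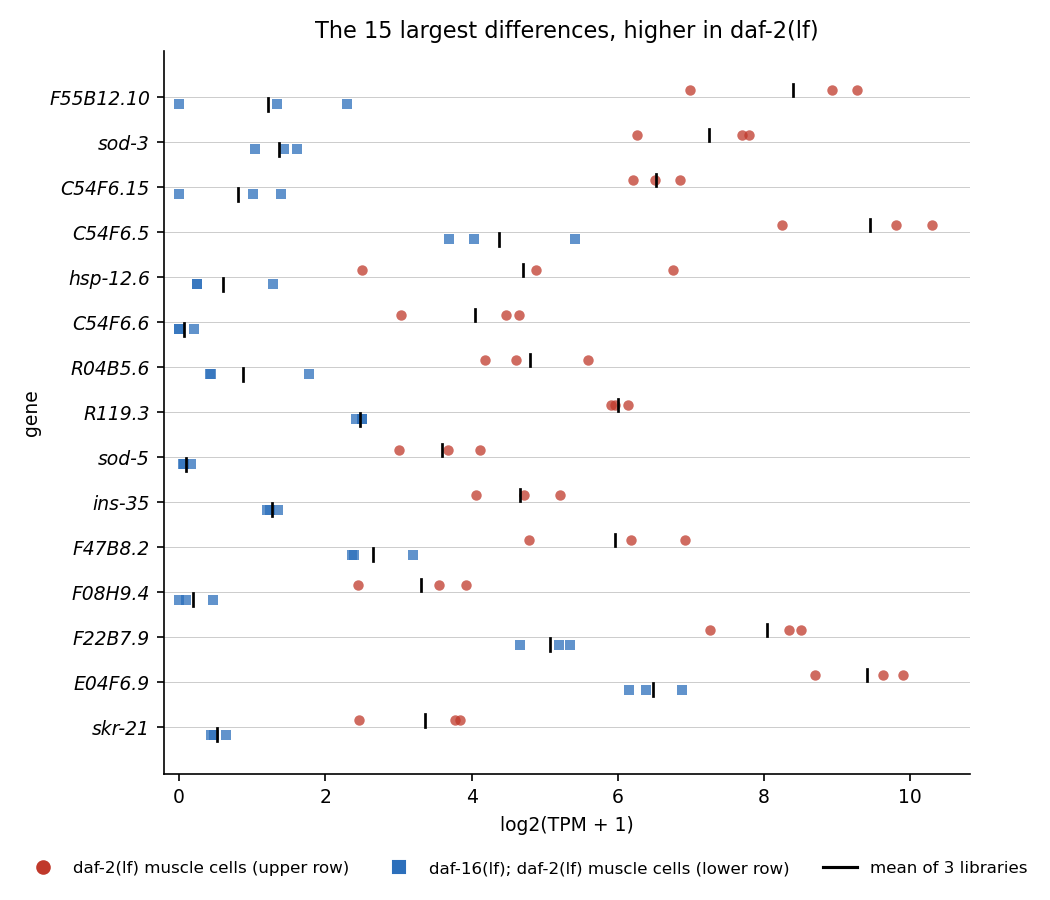
Level of the 15 genes with the largest raised differences in each of the 6 libraries, as log2(TPM + 1), with *daf-2(lf)* muscle cells as red circles above the double mutant as blue squares; black bars are means of 3 libraries. No gene overlaps between genotypes, from F55B12.10 with a log2 difference of 7.19 to *skr-21* with 2.84.

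Genes for defence against reactive oxygen and for detoxification had raised members and no lowered ones. Of 45 tested, 5 rose (*sod-3*, *sod-5*, *gst-7*, *gstk-2* and *ftn-1*) and 0 fell, where 0.313% of all genes tested rose. The median log2 difference was 0.13 against -0.19 over all genes. *sod-3*, *sod-5* and *ftn-1* also stand in the list of textbook targets. *sod-5*, a cytosolic copper/zinc superoxide dismutase, was at 16.3, 7.04 and 11.8 TPM in *daf-2(lf)* and 0.116, 0.0384 and 0.0488 TPM in the double mutant, a ratio of means of 172 (log2 difference 3.50 ± 0.31 SE, limma adjusted p = 8.34e-07). It was close to 0 in every double mutant library. Glutathione S-transferases conjugate glutathione to electrophiles, and *gst-7* was at 248, 88.6 and 202 TPM in *daf-2(lf)* against 28.2, 23.9 and 38.2 TPM in the double mutant. *gstk-2*, of the kappa class, was at 29.6, 22.9 and 29.2 TPM in *daf-2(lf)* against 5.71, 4.89 and 6.80 TPM in the double mutant. Neither gene overlapped between genotypes, and *gst-31*, found outside this list, also rose (log2 differences 2.44, 2.05 and 1.88). The superoxide dismutase *sod-1* did not pass (239.6, 170.3 and 186 TPM in *daf-2(lf)*, 148, 155 and 143 TPM in the double mutant, log2 difference 0.40, limma adjusted p = 0.831), nor did the metallothionein *mtl-1* (81.7, 12.56 and 28.3 TPM in *daf-2(lf)*, 1.28, 0.254 and 1.94 TPM in the double mutant, log2 difference 3.98 ± 1.23 SE, limma adjusted p = 0.203).

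Among the 28 tested genes of a list of textbook DAF-16 targets, 4 rose (*sod-3*, *hsp-12.6*, *sod-5* and *ftn-1*), 0 fell, and the median was 0.54. Of all genes tested, 0.313% rose. In 9 of the 28, all 3 *daf-2(lf)* libraries lay above the double mutant, against 2.64% of all genes tested. The transhydrogenase gene *nnt-1* was at 0.254, 0.135 and 0.170 TPM in *daf-2(lf)* muscle cells and 0.117, 0.0735 and 0.321 TPM in double mutant muscle cells, with overlap between the genotypes, while in all cells it averaged 15.4 TPM in *daf-2(lf)* and 1.56 TPM in the double mutant. The antimicrobial lysozyme gene *lys-7* was at 39.0, 8.45 and 13.4 TPM in *daf-2(lf)* muscle cells and 3.47, 1.93 and 5.15 TPM in double mutant muscle cells, and did not pass (log2 difference 2.03 ± 0.62 SE, limma adjusted p = 0.203).

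Small heat shock proteins, chaperones that hold unfolded proteins, divided into members that stood apart and members that did not. Of 13 tested, 2 rose (0.313% of all genes tested did) and 0 fell, with a median of 0.90. *hsp-12.6* was at 107, 4.65 and 28.4 TPM in *daf-2(lf)* and 0.190, 0.188 and 1.44 TPM in the double mutant (log2 difference 4.12 ± 0.63 SE, limma adjusted p = 0.00127). The *daf-2(lf)* libraries differed widely among themselves but all lay above the double mutant. F08H9.4, named *hsp-16.21* in RefSeq, was at 10.8, 4.48 and 14.2 TPM in *daf-2(lf)* and 0.0636, 0.378 and 0 TPM in the double mutant (3.13 ± 0.36 SE, limma adjusted p = 4.39e-05). The heat-inducible *hsp-16.2*, of a family whose similar members may share reads, overlapped between genotypes. It was at 27, 102.6 and 54.5 TPM in *daf-2(lf)* and 68.5, 32.7 and 5.87 TPM in the double mutant (log2 difference 1.11, limma adjusted p = 0.74). *sip-1* had non-overlapping libraries at 366, 136 and 116 TPM in *daf-2(lf)* and 4.12, 5.53 and 34.7 TPM in the double mutant, but did not pass (4.09 ± 0.99 SE, limma adjusted p = 0.068). Among 30 other chaperones, 1 rose: *hsp-70*, the stress-inducible Hsp70, at 27.5, 63.4 and 38.5 TPM in *daf-2(lf)* and 4.59, 14.9 and 4.93 TPM in the double mutant (2.37 ± 0.45 SE, limma adjusted p = 0.0117). The median of these 30 was 0.45.

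Within insulin signaling itself 1 of 25 components rose and 0 fell, with a median of -0.14. It was *pdk-1*, the kinase that activates AKT, at 8.19, 4.03 and 8.01 TPM in *daf-2(lf)* and 1.43, 1.45 and 1.19 TPM in the double mutant (log2 difference 1.67 ± 0.29 SE, limma adjusted p = 0.00544). Its groups did not overlap. Its substrate *akt-2* averaged 17.2 ± 4.03 TPM in *daf-2(lf)* and 7.06 ± 1.97 TPM in the double mutant (SD, n = 3 each), without overlap, and did not pass (1.18 ± 0.32 SE, limma adjusted p = 0.116). The receptor gene *daf-2* was at 6.94, 3.11 and 2.38 TPM in *daf-2(lf)* and 1.597, 5.79 and 5.80 TPM in the double mutant, with overlap (-0.04, limma adjusted p = 1). Its allele changes the protein, so the level of its mRNA does not check the label.

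Of the worm's insulin-like peptides, ligands that activate or antagonize DAF-2, 31 of 39 were tested and 1 rose. *ins-35* was at 25.2, 15.7 and 35.9 TPM in *daf-2(lf)* muscle cells and 1.56, 1.31 and 1.36 TPM in double mutant muscle cells (log2 difference 3.39 ± 0.69 SE, limma adjusted p = 0.0203). The genotypes stood apart, although the call held in 2 of the 6 fits that left out a library. *ins-35* was more abundant in all cells, with a mean of 465 TPM in *daf-2(lf)* and 32.0 TPM in the double mutant. The most abundant peptide in muscle was *ins-27*, at 1836, 1385 and 2138 TPM in *daf-2(lf)* and 1210.3, 934 and 576 TPM in the double mutant, which did not pass (1.02 ± 0.32 SE, limma adjusted p = 0.227). *ins-7* was listed at 0 in all *daf-2(lf)* muscle libraries and at 0, 0.132 and 0.526 TPM in the double mutant.

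**Figure D3:**
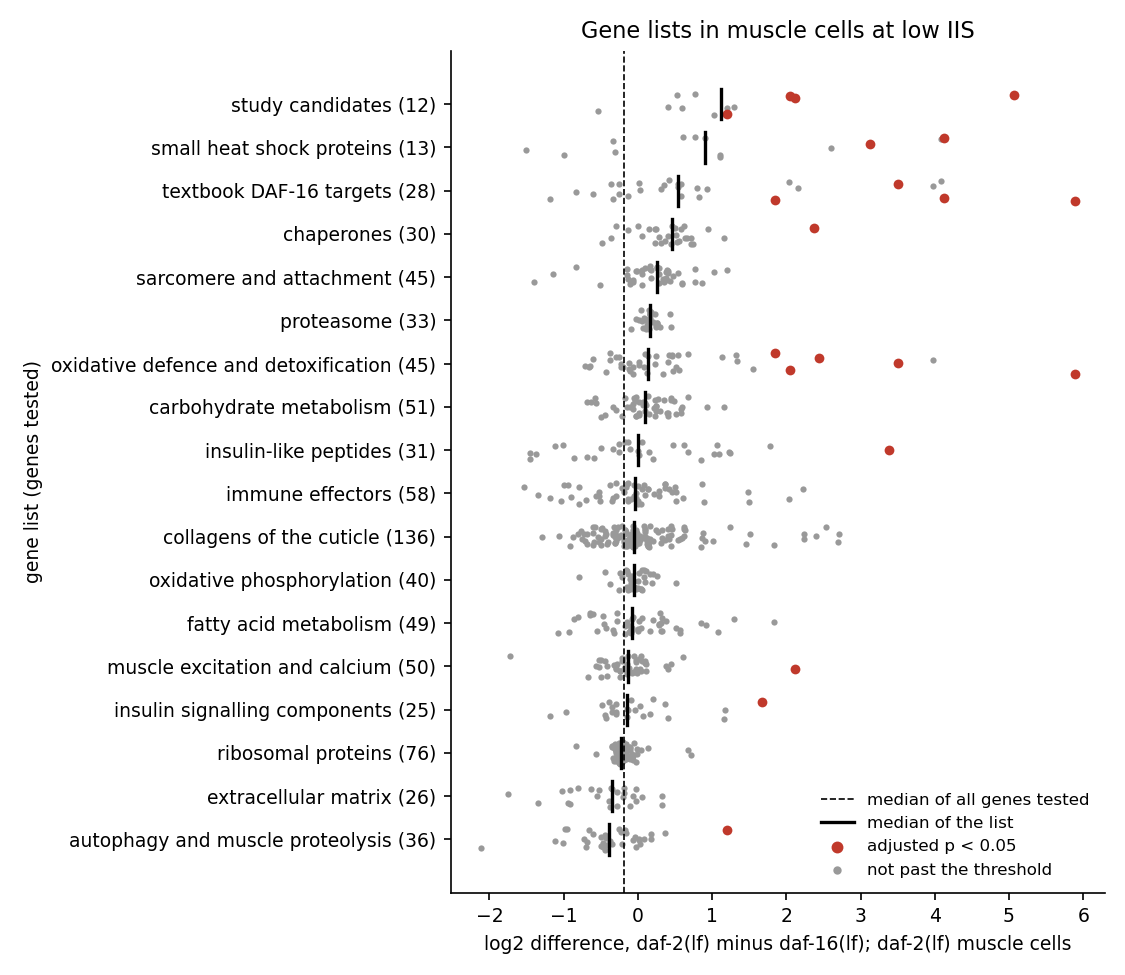
Log2 difference (*daf-2(lf)* minus double mutant muscle cells, x axis) of every tested gene of each list, ordered by list median; red points passed an adjusted p under 0.05, thick bars are list medians and the dashed line is the median of all genes tested, -0.19. Red points lie to the right only, with 5 in oxidative defence, and the medians run from -0.39 for autophagy to 1.11 for the candidates of the study, drawn here together with *rap-3*.

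Among genes of muscle function, 1 encoding a calcium-binding protein passed the test. *cex-1*, which encodes calexcitin, was at 599, 724 and 993 TPM in *daf-2(lf)* muscle cells and 114, 212 and 215 TPM in double mutant muscle cells, and in ungated cells it averaged 142.3 TPM in *daf-2(lf)* and 89.8 TPM in the double mutant. Every *daf-2(lf)* muscle library was above every double mutant one (log2 difference 2.12 ± 0.33 SE, limma adjusted p = 0.00171). It was the 1 gene that passed of 50 for excitation and calcium handling, whose median was -0.13. Of 45 sarcomere and attachment genes, 0 passed (7 at an unadjusted p under 0.05), with a median of 0.26. In 11 of the 45 all 3 *daf-2(lf)* libraries were higher, and in 0 all 3 were lower, against 2.64% and 9.79% of all genes tested. The actin gene *act-1* was at 19629.9, 16902 and 18068 TPM in *daf-2(lf)* and 8399, 11311 and 10538 TPM in the double mutant (0.86 ± 0.23 SE, limma adjusted p = 0.107), and the troponin C gene *pat-10* was at 22989, 23706 and 21623 TPM in *daf-2(lf)* and 13316, 17242 and 18905 TPM in the double mutant (0.48 ± 0.17 SE, limma adjusted p = 0.358). *pat-10* is itself one of the 13 body wall muscle markers, whose sums were higher in *daf-2(lf)* and whose median log2 difference was 0.06; the part of those sums in the values of *act-1* was not tested. Reads of the near-identical actin genes may be shared among them.

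Several abundant transcripts of muscle also rose, by factors that differed widely. *ttr-16*, one of the transthyretin-related secreted proteins, was at 5177, 4554 and 4926 TPM in *daf-2(lf)* and 3481, 2902 and 2508 TPM in the double mutant (log2 difference 0.73 ± 0.15 SE, limma adjusted p = 0.0276). *ttr-25* was at 409.7, 204 and 301 TPM in *daf-2(lf)* and 122.3, 86.2 and 41.1 TPM in the double mutant (1.94 ± 0.42 SE, limma adjusted p = 0.0317). Both stood apart between genotypes, and by symbol they were the 2 of 54 tested *ttr* genes that passed, each in 2 of the 6 fits that left out a library. E04F6.9 was at 954, 414 and 791 TPM in *daf-2(lf)* and 117, 70.4 and 82.7 TPM in the double mutant, and F22B7.9 at 324, 153 and 362 TPM in *daf-2(lf)* and 35.6, 24.3 and 39.8 TPM in the double mutant (log2 differences 2.93 and 2.97). R13H4.2 was at 1426, 1009 and 1544 TPM in *daf-2(lf)* and 415, 579 and 538 TPM in the double mutant (1.37 ± 0.26 SE, limma adjusted p = 0.00936). All 3 *daf-2(lf)* libraries exceeded the double mutant in each of these genes. The lysosomal cathepsin D-like protease *asp-4*, at 487, 344 and 397 TPM in *daf-2(lf)* and 252, 159 and 136 TPM in the double mutant, was the 1 of 36 autophagy and proteolysis genes that passed (1.2 ± 0.24 SE, limma adjusted p = 0.0203, held in 2 of the 6 fits that left out a library), and the median of that list was -0.39.

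Of the study's 12 candidates for muscle targets, 11 were tested, and 4 rose: C54F6.5, *cex-1*, *gstk-2* and F23D12.7. The study chose this list on these samples, so its median of 1.2 is no independent evidence. By its own test, DESeq2 on counts, all 12 had an adjusted p under 0.05 in this comparison. Limma on TPM is a different test, so a candidate that did not pass here is not thereby refuted. The study's reporters for C54F6.5, *cex-1* and *mlcd-1* rose with DAF-16 in body wall muscle, and that for *gstk-2* showed no obvious difference. F23D12.7 ranked 41 by mean TPM in *daf-2(lf)* muscle cells, with 3942, 3877 and 5227 TPM, against 1896, 2263 and 1548 TPM in double mutant muscle cells (log2 difference 1.2 ± 0.25 SE, limma adjusted p = 0.0276). Its transcript has 232 bases, less than the 236 to 258 bases that the length correction takes off. Its TPM and rank therefore rest on that correction and do not give its share of the reads. *mlcd-1*, a malonyl-CoA decarboxylase, was at 14.7, 13.3 and 15.4 TPM in *daf-2(lf)* and 2.28, 6.98 and 8.49 TPM in the double mutant, without overlap, but did not pass (1.29 ± 0.38 SE, limma adjusted p = 0.156). The candidates Y43F8B.1, *unc-78* and *ksr-1* had non-overlapping libraries, higher in *daf-2(lf)*, and *act-2*, *aqp-2* and *goa-1* overlapped; none of these 6 passed. *rap-3*, which the study set aside for low reads, did not pass either (log2 difference -0.54).

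Metabolic and structural lists held no called member. In carbohydrate metabolism 0 of 51 passed (3 at an unadjusted p under 0.05, median 0.10), in fatty acid metabolism 0 of 49 (8, median -0.08), in oxidative phosphorylation 0 of 40 (0, median -0.06), among ribosomal proteins 0 of 76 (2, median -0.23) and in the proteasome 0 of 33 (0, median 0.16). Extracellular matrix had 0 of 26 (3, median -0.35), immune effectors 0 of 58 (9, median -0.04) and cuticle collagens 0 of 136 (4, median -0.05). These counts are by limma with adjusted p under 0.05. The largest difference in fatty acid metabolism was that of the acyl-CoA synthetase *acs-2*, at 296, 226 and 360.4 TPM in *daf-2(lf)* and 202, 82.7 and 31.1 TPM in the double mutant, where one double mutant library came close to the *daf-2(lf)* range (1.83 ± 0.54 SE, limma adjusted p = 0.165).

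The lowered genes were mostly short and scarce in muscle. Their median transcript length was 486.5 bases, against 819.5 bases for the raised genes and 1191 bases for all genes tested. Of the 44, 23 were listed at 0 in at least 1 *daf-2(lf)* library and 5 in all 3, and 6 were pseudogenes (13.6%, against 2.88% of all genes tested). W10G6.6 (chromosome X, 16247684 to 16250779) had the largest difference of them, at 0, 1.67 and 3.18 TPM in *daf-2(lf)* and 27.01, 9.73 and 35.05 TPM in the double mutant (log2 difference -3.31 ± 0.52 SE, limma adjusted p = 0.00171). *her-1*, which encodes a secreted protein that promotes male fate, was at 0, 0.405 and 0.276 TPM in *daf-2(lf)* and 24.5, 6.87 and 5.10 TPM in the double mutant (-3.14 ± 0.72 SE, limma adjusted p = 0.045). The genotypes did not overlap in either gene, but the call of *her-1* held in 0 of the 6 fits that left out a library. T06A10.2, ZK84.4, M162.15, C25F9.16 and Y38F2AL.12 were listed at 0 in all 3 *daf-2(lf)* libraries, and in the double mutant T06A10.2 was at 11.9, 2.83 and 14.9 TPM and Y38F2AL.12 at 4.86, 4.82 and 3.06 TPM.

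A few lowered genes were better expressed or more even. The pseudogene Y17D7B.7 (chromosome V, 18780490 to 18782605) was the most abundant, at 248, 352 and 306 TPM in *daf-2(lf)* and 982, 1195 and 919 TPM in the double mutant (log2 difference -1.77 ± 0.27 SE, limma adjusted p = 0.00106). The pseudogene C14C6.12 was at 5.84, 6.70 and 2.93 TPM in *daf-2(lf)* and 32.7, 31.4 and 44.2 TPM in the double mutant (-2.63 ± 0.31 SE, limma adjusted p = 4.97e-05). Both separated the genotypes and passed in each of the 6 fits that left out a library. *anmt-2*, an amine N-methyltransferase gene, was at 56.1, 31.04 and 32.9 TPM in *daf-2(lf)* and 124, 79.5 and 117 TPM in the double mutant (-1.42 ± 0.31 SE, limma adjusted p = 0.033), and it passed in 3 of those fits.

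**Figure D4:**
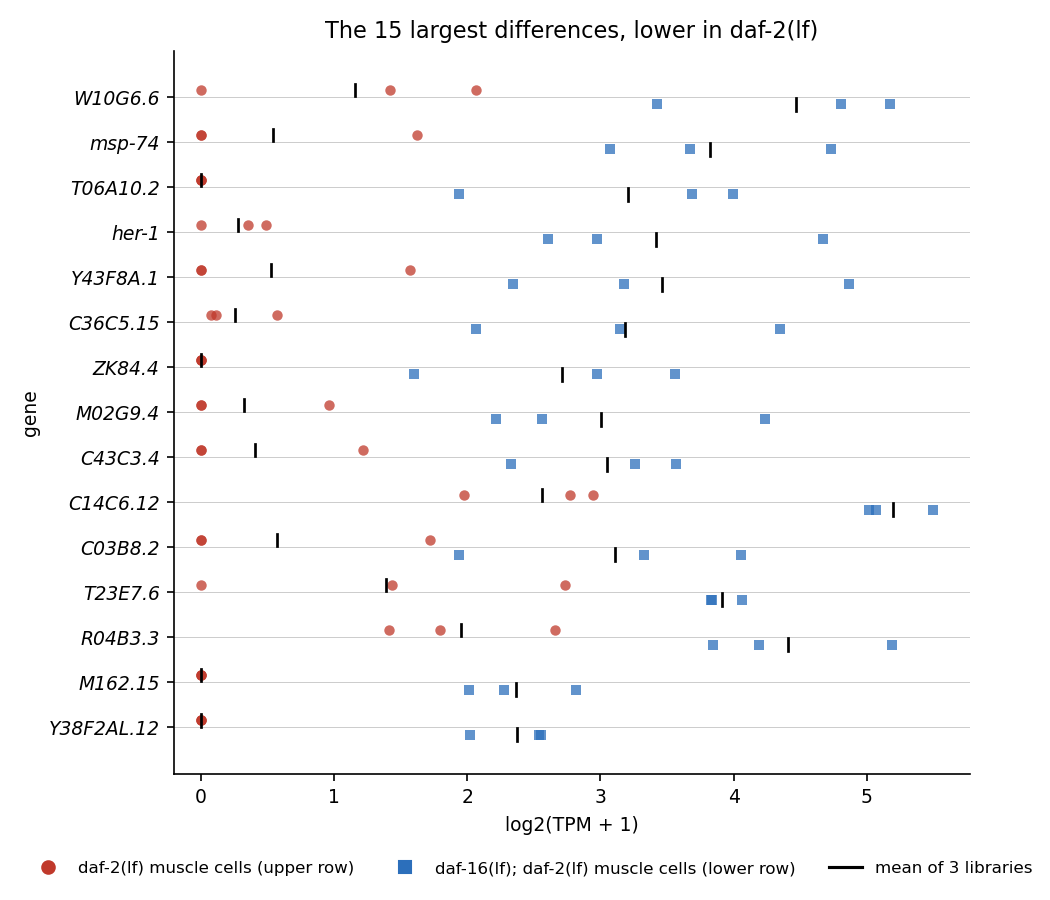
Level of the 15 lowered genes with the largest differences among those without overlap between genotypes, in each of the 6 libraries, as log2(TPM + 1), with *daf-2(lf)* muscle cells as red circles above the double mutant as blue squares; black bars are means of 3 libraries. Many *daf-2(lf)* points lie at 0, and the differences run from -3.31 for W10G6.6 to -2.37 for M162.15 and Y38F2AL.12.

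Among the lowered genes, 6 encode neuropeptides or neuropeptide receptors: *nlp-56*, *nlp-64*, *nlp-79*, *npr-25*, *frpr-16* and *dmsr-2*. They were picked out after their values were seen, and each passed in only 1 or 2 of the 6 fits that left out a library. *frpr-16* was at 1.00, 2.14 and 1.75 TPM in *daf-2(lf)* and 8.78, 6.65 and 23.5 TPM in the double mutant (log2 difference -2.24 ± 0.50 SE, limma adjusted p = 0.0363). *nlp-64* was at 0.494, 0.292 and 0.836 TPM in *daf-2(lf)* and 3.82, 2.46 and 6.02 TPM in the double mutant (-1.68 ± 0.38 SE, limma adjusted p = 0.0428). Both were highest in double mutant replicate 3. Of all 100 tested genes named *flp* or *nlp*, 3 fell and 0 rose, 42 had all 3 *daf-2(lf)* libraries lower (9.79% of all genes tested did), and the median was -0.92. Of 39 tested receptor genes named *npr*, *frpr* or *dmsr*, 3 fell, 9 had all 3 *daf-2(lf)* libraries lower, and the median was -0.28, against -0.19 over all genes. *msp-74*, one of the major sperm proteins whose near-identical copies may share reads, also fell, at 0, 0 and 2.08 TPM in *daf-2(lf)* and 11.8, 7.41 and 25.6 TPM in the double mutant, and it was the 1 of 30 tested *msp* genes that passed.

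Markers of other cell types were mostly higher in the double mutant too. Of 68 such markers, 61 had a higher mean in double mutant muscle cells and 55 were highest in double mutant replicate 3, although 0 passed the test. The difference was positive in 26.6% of all genes tested, so most genes were lower in *daf-2(lf)*. Double mutant replicate 3 had the highest median level of the 6 libraries in each class of transcript length, by 0.35 to 0.73 above their mean on the log2 scale. The share of all genes that were highest in this library was not counted. The 11 neuronal markers summed to 117 to 138 TPM in *daf-2(lf)* and 144 to 290 TPM in the double mutant, with a median log2 difference of -0.62. The 7 sperm markers summed to 19.1 to 89.6 TPM in *daf-2(lf)* and 41.5 to 321 TPM in the double mutant (median -0.97), and the 6 pharyngeal markers to 5.40 to 11.1 TPM in *daf-2(lf)* and 5.87 to 39.2 TPM in the double mutant (median -0.82). The medians were -0.56 for germline (10 genes), -0.43 for hypodermis (8), -0.17 for intestine (14), -0.40 for coelomocytes (3), -0.52 for gonad sheath and sex muscles (5), -0.31 for glia (4) and 0.06 for body wall muscle (13). The intestinal sums lay between 116 and 244 TPM in *daf-2(lf)* and 133 and 309 TPM in the double mutant, against 3693 TPM or more in all cells of both genotypes. A marker was listed at 0 in at least 1 of the 6 libraries for *elt-7*, *cup-4* and *ptr-10*. In 32 of the 44 lowered genes, double mutant replicate 3 was the highest, and without it 10 of the 44 passed. In 31 of the 44, *daf-2(lf)* replicate 1, the library with the fewest genes above 0 of the 6, was the lowest or tied for the lowest. Without it 14 of the 44 passed. The part of other cell types in the lowered genes was not tested.

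**Figure D5:**
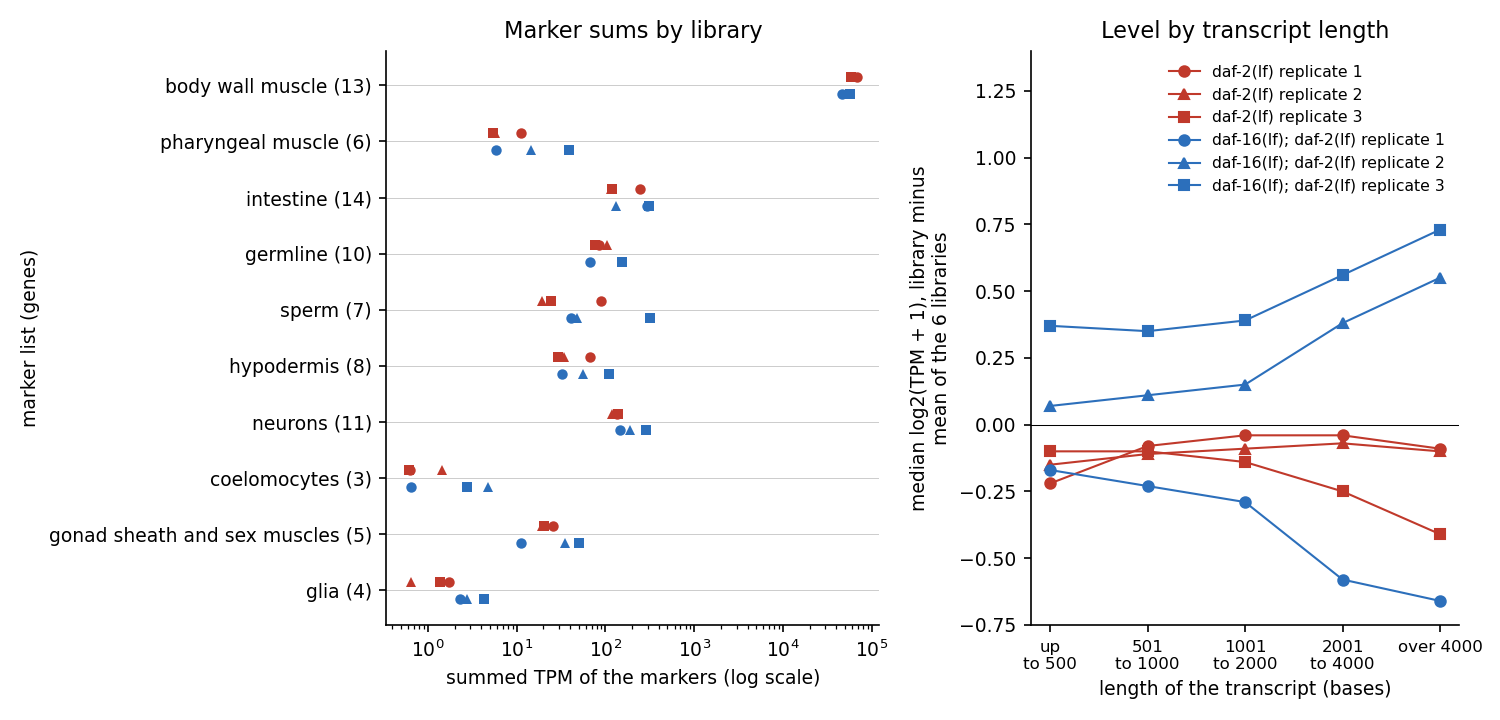
Left, summed TPM of the markers of each cell type in each library (log scale), *daf-2(lf)* muscle cells (red) above the double mutant (blue), with circles, triangles and squares for replicates 1, 2 and 3. Right, median over genes of the level of a library minus the mean of the 6 libraries, on the log2(TPM + 1) scale, by transcript length: double mutant replicate 1 sinks to -0.66 in transcripts over 4000 bases while replicates 2 and 3 climb to 0.55 and 0.73.

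Long transcripts set the double mutant libraries apart from each other. In the 494 genes whose leading transcript exceeds 4000 bases, the median deviation from the mean of the 6 libraries was -0.09, -0.10 and -0.41 in *daf-2(lf)* replicates 1 to 3 and -0.66, 0.55 and 0.73 in double mutant replicates 1 to 3. The median log2 difference of these genes was -0.35 with all libraries and -0.81 without double mutant replicate 1. The giant muscle gene *unc-22*, which encodes twitchin, was at 3.96, 5.99 and 3.60 TPM in *daf-2(lf)* and 1.83, 28.9 and 33.5 TPM in the double mutant. The ryanodine receptor gene *unc-68* was at 1.73, 2.60 and 1.18 TPM in *daf-2(lf)* and 0.958, 15.98 and 21.7 TPM in the double mutant, and the laminin gene *epi-1* at 5.31, 11.7 and 3.46 TPM in *daf-2(lf)* and 3.24, 68.7 and 45.3 TPM in the double mutant. In each, double mutant replicate 1 lay below and replicates 2 and 3 above all *daf-2(lf)* libraries. None of these 3 genes passed the test.

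The raised genes were also compared with the same contrast in ungated cells, which were taken from the same dissociations. Of the 46, 43 had the same sign in all cells and 23 passed there in the same direction, where 358 of the 14714 genes passed (2.43%), 253 of them higher in *daf-2(lf)* (1.72%). Of the 44 lowered genes, 33 had the same sign and 3 passed in the same direction, with 105 genes lower in *daf-2(lf)* (0.714%). The difference of the effect between muscle cells and all cells, tested as an interaction, passed for 5 of the raised and 5 of the lowered genes, and for 133 genes in all (0.904%), 20 of them positive (0.136%) and 113 negative (0.768%). With low IIS muscle and all cells libraries of one number paired as a block, it passed for 8 raised and 9 lowered genes and for 168 in all. This pairing was inferred from these data and is not stated by the study. *cex-1*, at 2.12 in muscle cells and 0.65 in all cells, passed with the block (1.46, limma adjusted p = 0.00711, against 0.343 without it). For *skr-21* the log2 difference was 2.84 in muscle cells and 0.40 in all cells, and the interaction of 2.45 passed (limma adjusted p = 0.0177). For F55B12.10 it was 7.19 in muscle cells and 3.40 in all cells (interaction 3.78, limma adjusted p = 0.0372). In contrast, Y60C6A.3 was at 2.80, 2.21 and 4.21 TPM in *daf-2(lf)* muscle cells and 0.723, 0.358 and 0 TPM in double mutant muscle cells, while in all cells it averaged 311 TPM in *daf-2(lf)* and 0.543 TPM in the double mutant (interaction -5.97, limma adjusted p = 2.75e-07). The neighbouring genes K06H6.1 and K06H6.2, 782 bases apart on chromosome V, had effects of 1.00 and 1.67 in muscle cells and 4.51 and 5.28 in all cells. They averaged 1.13 and 2.65 TPM in *daf-2(lf)* muscle cells, against 23.1 and 42.3 TPM in *daf-2(lf)* all cells. The 1 TPM added before the logarithm shrinks effects at the muscle levels, so the gap between their effects is overstated. For *sod-3*, *hsp-12.6* and C54F6.5, whose interaction did not pass, a difference between cell populations was not detected. Since the raised and lowered genes were chosen on the muscle contrast, a part of this interaction, the interaction counts among them are no independent evidence.

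At high IIS, where *daf-16* was present or absent in *daf-2(+)* muscle cells, the same model called 0 genes by limma (0% of those tested, with 105 or 0.714% at an unadjusted p under 0.05). That share lies below the threshold of 0.05 itself, so 0 calls do not show that no gene differed. By the study's own test on counts a few genes passed at high IIS, most of them with low reads. The effect of *daf-16* at low IIS minus that at high IIS passed for 15 of the 46 raised and 8 of the 44 lowered genes, and for 24 genes in all (0.163%), 16 of them positive (0.109%) and 8 negative (0.0544%). For R119.3 the log2 difference was 3.53 at low IIS and 0.04 at high IIS (interaction 3.49, limma adjusted p = 1.46e-05), and for C54F6.15 it was 5.72 at low IIS and 0.15 at high IIS (5.57, limma adjusted p = 1.46e-05). *sod-3* differed by 5.89 at low IIS and by 1.57 at high IIS (interaction 4.32, limma adjusted p = 0.0526). Both contrasts drew on the model over all libraries but on different muscle libraries. The raised and lowered genes were chosen on the low IIS contrast, which is part of this interaction, so the counts among them are no independent evidence. The low IIS strains also differed from the high IIS strains in rearing temperature and in the fragment length that the TPM values imply (an offset of 236 to 258 bases in the 6 low IIS muscle libraries), so these and IIS state cannot be told apart. The labels name 2 library kits without saying which libraries each made.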

How the data were processed

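mRNA-seq was examined in 6 libraries of sorted muscle cells, with the other 18 libraries of the series in the same model. Groups and replicate numbers were taken from the labels. Per the labels and methods, the authors quantified reads with Salmon 1.4.0 on transcripts of WBcel235 and deposited TPM for 35749 transcripts with their lengths, which scale to the same total in each library and carry no read depth. Depth was estimated from the step between low TPM values times effective length in genes with 1 transcript, within 0.1 fragment of whole numbers up to 10 fragments, in transcripts of at least 1000 bases; 94.1% to 98.9% of those values were whole. This covers counting only.

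TPM was summed over transcripts of a gene by sequence name, which gave 21979 genes, 21894 of them annotated in the Ensembl WBcel235 annotation used for symbols and coordinates. A gene entered the test if 3 or more of the 24 libraries reached 1 TPM (14714 genes). Linear models of log2(TPM + 1) were fitted in R 4.3.3 by limma 3.58.1, with a mean for each of 8 groups, an abundance trend and Benjamini-Hochberg adjustment at 0.05. Differences on this scale understate the change of scarce genes. Contrasts, gene lists and members were chosen with earlier results of these data known. Genes named are the 15 largest raised and lowered with libraries that do not overlap, up to 4 called members of each list or its member of lowest p, the study's candidates, *daf-16*, *daf-2*, *sod-3* and cell type markers; other genes were named after their values were seen. The fit was tested on simulated data. Lists were described by counts and medians. *tmd-1*, *fgt-1*, *tin-2*, *tiar-3* and *hsp-16.49* had no match by symbol and were not analysed here. The promoter motif search was not run, since no genome sequence was used here. The labels name a stranded kit for single-end libraries and another, which does not mark strand, for paired-end libraries; which libraries each made, the transcript set and the strand setting are not given in the sources used here. By the study's methods, the all cells samples were sorted from the dissociated cells without GFP gating. That replicate numbers match between muscle and all cells libraries is not stated. Deviations from the group means correlated at 0.166 to 0.441 in the 6 low IIS pairs of one number. The numbers were taken to pair these libraries on that ground, so the pairing is inferred from the same data.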

Additional observations from a re-analysis of the deposited data

Results flagged for a closer look

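For some genes the effect of *daf-16* at low IIS differed between muscle cells and ungated cells by the interaction term (limma adjusted p of 2.52e-07 to 0.0372). On the log2 scale, the difference (muscle effect less the effect in ungated cells) was above 0 for F55B12.10 3.78 and *skr-21* 2.45, both raised in muscle cells. It was negative for the raised genes K06H6.1 -3.51, K06H6.2 -3.61 and Y60C6A.3 -5.97, whose effect on the log2(TPM + 1) scale was larger in all cells. It was also negative for W10G6.6 -4.17, T06A10.2 -4.83, C43C3.4 -3.68, C03B8.2 -2.86 and Y38F2AL.12 -2.62, which were lowered in muscle cells and had positive differences, from 0.25 to 1.62, in all cells. K06H6.1 and K06H6.2 averaged only 1.13 and 2.65 TPM in *daf-2(lf)* muscle cells. The 1 TPM added before the logarithm shrinks effects at such levels, so their difference between cell populations is overstated on this scale.

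In muscle cells, the effect of *daf-16* at low IIS differed from that at high IIS for further genes (limma adjusted p of 1.46e-05 to 0.0466). On the log2 scale the low IIS minus the high IIS effect was positive for F55B12.10 6.92, C54F6.15 5.57, *hsp-12.6* 4.22, C54F6.6 3.95, R04B5.6 3.54, R119.3 3.49, *sod-5* 3.33, F08H9.4 3.02, F22B7.9 2.97, *skr-21* 2.57, *dmd-10* 2.15, F40G12.5 2.44, M05D6.10 1.34, *gst-31* 1.68 and ZK742.4 2.35. It was negative for C43C3.4 -2.98, C14C6.12 -2.33, R04B3.3 -2.77, Y38F2AL.12 -2.37, F54F7.6 -1.33, F56C3.10 -1.80, Y17D7B.7 -2.1 and Y51H7C.13 -2.59. The effects of these genes at high IIS lay between -0.35 and 0.47. IIS state, rearing temperature and the fragment length of the libraries cannot be told apart here.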

How the results depend on the processing

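Genes called in muscle cells at low IIS numbered 90 in all, 46 raised and 44 lowered. Leaving out 1 of the 6 libraries gave totals of 43 to 685, with 29 to 59 raised and 13 to 626 lowered genes. A replicate block raised the total, and 140 genes passed, 74 of them lowered. Same-numbered libraries of the genotypes deviated together in replicate 2 but not in replicates 1 and 3 (r = -0.026, 0.479 and -0.277 in replicates 1 to 3). The numbers were therefore not taken to pair muscle libraries of different genotypes. Fitting the 6 libraries alone left 3 genes, 3 raised and 0 lowered (1056 at an unadjusted p under 0.05), and 0 with the replicate block (1082). Array weights gave 4897 genes, 404 raised and 4493 lowered, and in the 6 libraries alone, a setting chosen after seeing the data, 6532, 577 and 5955; the weights did not converge and gave double mutant replicate 1 a weight of 0.154, against 5.69 for replicate 2. Quantile normalization gave 25 lowered genes, and 72.8% of calls were then raised (65.0% with median-of-ratios scaling), against 51.1%; the causes were not tested.

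The count of genes whose effect differed between muscle cells and all cells (133) was 62 with a pseudocount of 0.1, 238 without a filter, 63 with a minimum of 4 TPM, 61 after quantile normalization, 673 with array weights and 76 in the 12 low IIS libraries (chosen after seeing the data), and 117 to 155 leaving out a library. Pairing muscle with all cells libraries, chosen after seeing the data, gave 168, of which 131 were shared, and kept the calls of all 10 genes listed above. The count for low against high IIS (24) was 4819 with array weights and 14 to 35 leaving out a library, the lowest without *daf-2(lf)* replicate 3. Over 134 named genes, cell type markers left aside, and all settings, 1889 values kept their side of the threshold, 556 lost a call and 82 gained one. A sign changed in 15 values of 5 genes, and in 0 values of genes that were called. TPM carries no read counts, so the error of scarce genes could not be modelled from depth. The promoter motif search was not run.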

Other observations

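Cuticle collagens, secreted structural proteins of the hypodermis, held no called gene among 136 tested, but 14 had all 3 *daf-2(lf)* libraries above all 3 double mutant libraries and 6 had all 3 below, against 2.64% and 9.79% of all genes tested. The genes below were named after their values were seen. *col-40* was at 11.4, 4.71 and 5.61 TPM in *daf-2(lf)* muscle cells and 0.124, 0.369 and 0.0782 TPM in double mutant muscle cells. *col-37* was at 10.7, 6.09 and 5.34 TPM in *daf-2(lf)* and 0.0849, 0.525 and 0.1604 TPM in the double mutant. The genotypes were far apart in both genes, with log2 differences of 2.71 and 2.70. The standard errors over all 24 libraries were 1.75 for *col-40* and 1.1 for *col-37* (limma adjusted p = 0.78 and 0.47), and 0.44 and 0.42 in the 6 libraries fitted alone (limma adjusted p = 0.292 and 0.273). In the other direction, *col-34* was at 0.373, 0.815 and 0.539 TPM in *daf-2(lf)* and 2.79, 2.22 and 3.55 TPM in the double mutant (log2 difference -1.29, limma adjusted p = 0.768). The summed hypodermal markers were at 28.9 to 67.8 TPM in *daf-2(lf)* and 32.8 to 110.5 TPM in the double mutant.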
